A study of Homo sapiens with 38 samples.

Results

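Gradient pool 9_10 was compared with small extracellular vesicles pelleted by ultracentrifugation (3D UC sEV), both from medium of DiFi cells, a human colorectal cancer line. The 7 libraries compared, 4 of gradient pool 9_10 (A to D) and 3 of 3D UC sEV (A to C), were chosen by their labels from the 38 small RNA libraries of the series, and all 22549 features of the deposited table were read in them. In both groups the cells grew in a hollow-fibre bioreactor (3D). About 400 mL of conditioned medium went into each of 4 pools, was passed through a 0.22 µm filter and was split into 60 mL aliquots. For 3D UC sEV an aliquot was spun at 167000 g for 4 h and the pellet was washed in the same way. For the gradient an aliquot was cleared at 10000 g and spun at 100000 g for 4 h onto a cushion of 60% iodixanol, from which a density gradient was run. The labels speak of vesicles, heavy vesicles and non-vesicular material from this gradient without tying any of them to fractions 9 and 10, so the pool keeps its fraction numbers. All RNA was treated with AlkB, an enzyme that removes methyl groups which block reverse transcription. The replicate letters are not tied to medium pools, so every p-value below measures only a spread between libraries, which may be technical. For class shares it is the spread of the 7 libraries. For single features, unless stated otherwise, the spread was estimated over all 38 libraries of the series, or 37 in the fits within classes.

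Small RNA outside cells comes from several classes. MicroRNAs (miRNAs) are short guides that steer Argonaute proteins to messenger RNAs through their seed, bases 2 to 8. Transfer RNAs (tRNAs) and Y RNAs are cut into fragments that are abundant in extracellular samples. Vault RNAs belong to vault particles, 7SL RNA to the signal recognition particle, 7SK RNA to a regulator of transcription elongation, U small nuclear RNAs (snRNAs) to the spliceosome or to histone mRNA processing (U7), and small nucleolar RNAs (snoRNAs) guide rRNA processing and modification. Most of these structural RNAs other than the vault RNAs have many near-identical pseudogene copies in the genome, and the authors' counts divide or assign reads among them, so single copies are uncertain as features.

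The first set of sequences shows 6 of the 14 miRNAs whose share of miRNA counts was lower in 9_10 in every fit that left out 1 library, among 26 that were lower with all libraries. The 3 miR-320 entries carry the same seed, and the other 3 miRNAs each have their own. The sequences are RefSeq's mature miRNAs on GRCh38.p14, 5′ to 3′, with the seed in capitals, and 68 of the 75 miRNA entries examined singly had a match there.
hsa-miR-320b: aAAAGCUGgguugagagggcaa
hsa-miR-320c: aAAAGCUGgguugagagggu
hsa-miR-320d: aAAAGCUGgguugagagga
hsa-miR-423-5p: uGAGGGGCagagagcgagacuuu
hsa-miR-484: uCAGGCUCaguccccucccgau
hsa-miR-130b-3p: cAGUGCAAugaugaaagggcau
They lie at chr1:116671787-116671808, chr18:21683559-21683578, chr13:40727828-40727846, chr17:30117095-30117117, chr16:15643301-15643322 and chr22:21653354-21653375. The opposite arm of the last hairpin went the other way, and its sequence is given beside the abundant miRNAs of both groups, of which miR-200b-3p and miR-200c-3p share a seed.
hsa-miR-130b-5p: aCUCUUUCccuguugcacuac
hsa-miR-21-5p: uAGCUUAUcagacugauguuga
hsa-miR-194-5p: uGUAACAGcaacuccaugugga
hsa-miR-200b-3p: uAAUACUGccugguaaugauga
hsa-miR-200c-3p: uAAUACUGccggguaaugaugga
hsa-miR-1246: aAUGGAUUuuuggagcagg
These lie at chr22:21653316-21653336, chr17:59841273-59841294, chr1:220118206-220118227, chr1:1167160-1167181, chr12:6963742-6963764 and chr2:176601024-176601042.

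The tRNA sequences are those the deposited table lists first for 3 entries that were higher in 9_10, written as DNA with the anticodon in capitals.
tRNA-Arg-TCT: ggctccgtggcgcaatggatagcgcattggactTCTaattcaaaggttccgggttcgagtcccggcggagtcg
tRNA-Ser-TGA: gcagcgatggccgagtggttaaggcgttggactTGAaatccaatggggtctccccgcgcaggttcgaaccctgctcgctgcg
tRNA-Ile-GAT: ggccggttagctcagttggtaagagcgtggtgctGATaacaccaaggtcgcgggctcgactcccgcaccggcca
Other isodecoders of tRNA-Arg-TCT and tRNA-Ser-TGA differ by some bases and are counted with them, while tRNA-Ile-GAT has only 1 distinct sequence. The first loci of the printed entries on GRCh38 are chr1:93847573-93847657, chr10:67764503-67764584 and chrX:3838377-3838450, of which the tRNA-Arg-TCT locus holds an intron that the printed tRNA lacks.

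The 9_10 libraries were shallow. Their total counts were 490374 in A, 112383 in B, 81079 in C and 185733 in D, against 3661132, 4146361 and 2889572 in the 3D UC sEV libraries. A limit of 3 counts stands for 6.12, 26.7, 37.0 and 16.2 counts per 1e+06 counts of the library (CPM) in 9_10 A to D and for 0.724 to 1.04 CPM in sEV, so weak features could not be followed in 9_10 below those levels. Class shares were still precise as counts: the widest 95% Wilson interval of a class share spanned 0.335 percentage points to either side, and that interval covers counting error alone, because amplified reads carrying no molecular identifier may repeat 1 molecule. The class shares of replicates differed far more than that, with miRNA at 38.8 to 49.4% within 9_10. Single features were compared by correlation. The offset of 5 CPM used there is less than 3 counts in every 9_10 library, so counting error enters these correlations too, and its part was not tested. Correlations of log2(CPM + 5) over 1106 features were 0.809 to 0.903 within 9_10, 0.990 between sEV B and C, 0.871 to 0.887 between sEV A and the other 2 sEV libraries, and 0.573 to 0.778 between the groups.

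miRNA had the largest mean share in both groups, and 9_10 held less rRNA and snoRNA and more retroviral RNA than any sEV library. miRNA made up 49.4, 43.7, 38.8 and 45.4% of 9_10 A to D and 39.9, 23.4 and 24.9% of sEV A to C. In sEV B the Y RNA share was slightly above that of miRNA. The ranges touched through sEV A alone (exact permutation p = 0.0571, adjusted 0.171). tRNA made up 18.4, 23.8, 27.9 and 13.7% of the 9_10 libraries and 4.27, 11.1 and 15.1% of the sEV libraries, and the ranges overlapped (exact permutation p = 0.0857, adjusted 0.171).

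Ribosomal RNA accounted for 12.0, 5.39, 4.80 and 6.15% of 9_10 A to D and for 21.8, 20.4 and 15.4% of sEV A to C. As shares of the counts, fewer particles and less RNA per particle cannot be told apart. On average rRNA was 7.07% ± 3.30 (SD, n = 4) of the gradient libraries and 19.2% ± 3.37 (SD, n = 3) of the sEV libraries. All 4 gradient libraries lay below all 3 sEV libraries (exact permutation p = 0.0286, adjusted 0.143). An unadjusted p of 0.0286 is the smallest that the 35 assignments of 7 libraries can give in an exact permutation test. snoRNA was 0.304% ± 0.125 (SD, n = 4) of the gradient libraries and 1.87% ± 0.430 (SD, n = 3) of the sEV libraries, again without overlap (exact permutation p = 0.0286, adjusted 0.143). The class named ERV, endogenous retroviral repeats, was 2.04% ± 1.45 (SD, n = 4) of the gradient libraries and 0.175% ± 0.0477 (SD, n = 3) of the sEV libraries. Its ranges did not overlap either, although A and B at 2.63% and 3.82% stood well above C and D at 0.932% and 0.795% (exact permutation p = 0.0857, adjusted 0.171). These 3 of the 10 classes were the ones without overlap, and no class passed 0.05 after Benjamini-Hochberg adjustment over the 10 classes.

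**Figure D1:**
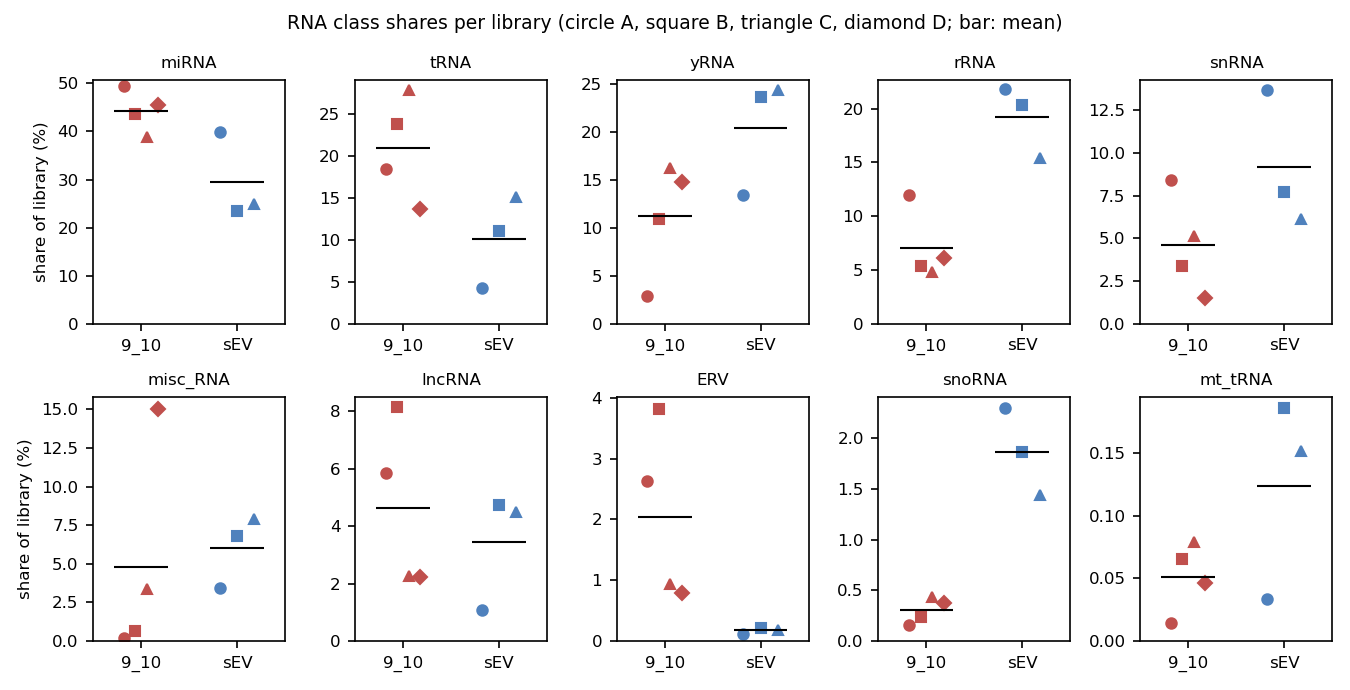
Share of each library's counts (percent, linear axes from 0) in 10 RNA classes for the 4 gradient 9_10 libraries (red) and the 3 3D UC sEV libraries (blue); bars are means. The rRNA, snoRNA and ERV points of the 2 groups do not overlap, and the misc_RNA points of 9_10 span 0.225% to 15.0%.

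The remaining classes spread widely between replicates. Y RNA was 2.93, 10.9, 16.3 and 14.7% of 9_10 A to D and 13.4, 23.6 and 24.3% of sEV A to C, and A was the lowest of all (exact permutation p = 0.143, adjusted 0.204). The misc_RNA class, which holds vault, 7SL and 7SK entries, was 0.225, 0.636, 3.39 and 15.0% of 9_10 A to D and 3.45, 6.79 and 7.92% of sEV (exact permutation p = 0.857, adjusted 0.857). snRNA was 4.61% ± 2.94 (SD, n = 4) of the gradient libraries and 9.16% ± 3.98 (SD, n = 3) of the sEV libraries (exact permutation p = 0.143, adjusted 0.204). lncRNA was 4.62% ± 2.89 (SD, n = 4) of the gradient libraries and 3.44% ± 2.06 (SD, n = 3) of the sEV libraries, and mitochondrial tRNA was 0.0514% ± 0.0280 (SD, n = 4) of the gradient libraries and 0.124% ± 0.0799 (SD, n = 3) of the sEV libraries, both with overlapping ranges (exact permutation p = 0.600, adjusted 0.667; exact permutation p = 0.171, adjusted 0.214).

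Both groups carried the miRNAs of colorectal epithelium. All 10 listed epithelial markers were counted in 9_10, with a summed level of 65944 to 155928 CPM against 54376 to 103934 CPM in sEV. Of 7 blood markers, 4 were at 0 in all 9_10 libraries, among them miR-486-5p and miR-223-3p, while miR-142-5p and miR-142-3p held nearly all of the summed 651 to 1637 CPM (sEV 488 to 845 CPM). The red cell marker miR-451a had 1 count in D and none in A to C. Of 6 muscle and mesenchyme markers 5 were at 0 in 9_10, including miR-143-3p, miR-133a-3p and miR-206. In the deeper sEV libraries 0 of the 7 blood markers and 1 of these 6 were at 0. The 6 summed to only 23.2 to 51.1 CPM in sEV, and 3 counts stand for 6.12 to 37.0 CPM in 9_10. A value of 0 in 9_10 therefore does not show absence. The endothelial marker miR-126-3p reached 17.8 to 61.7 CPM and the liver marker miR-122-5p 0 to 12.3 CPM.

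How many single features differed turned on the scaling between libraries. With TMM factors, which were 2.41 to 8.40 in 9_10 and 0.548 to 0.656 in sEV, 680 of 7009 tested features (9.7%) passed edgeR's quasi-likelihood test at a Benjamini-Hochberg adjusted p of 0.05, 19 higher (0.271%) and 661 lower (9.43%) in 9_10. With library totals 443 (6.32%) passed, 339 higher (4.84%) and 104 lower (1.48%). On the log2 scale the 2 scalings set the fold changes apart by a median of 2.84. Direction is therefore stated here only for features that passed in the same direction under both, or for shares within a class. Those that passed under both were 19 higher (0.271%) and 104 lower (1.48%) of the 7009 features. No feature passed in opposite directions. In CPM, 441 features (6.29%) were higher and 494 (7.05%) lower in all 4 gradient libraries than in all 3 sEV libraries. Of the 104 lower features 50 were snRNA entries, 31 snoRNA, 11 miRNA, 5 Y RNA, 3 mitochondrial tRNA, 2 lncRNA, 1 misc_RNA and 1 rRNA. Within classes, with the library size set to the class total, 86 of 5249 features (1.64%) were higher and 55 (1.05%) lower, 2.69% in all. Of those, 17 of the 86 and 18 of the 55 also passed in every fit that left out 1 of the 7 libraries, and 22 and 11 passed without 9_10 A and B. All adjusted p-values of single features below come from these edgeR fits, and each log2 fold change is 9_10 over sEV, of the share of the class counts where it is called within-class.

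Members of the miR-320 family and miR-484 took smaller shares of the miRNA counts in 9_10. All 6 tested entries of this list were lower in 9_10 within the miRNA class, under TMM and under library totals, with a median within-class log2 fold change of -4.07 against -0.40 for all 485 miRNA entries tested, of which 3 were higher and 26 lower. The precursor of miR-320a-3p is a capped hairpin made without Drosha. miR-320b had 46.1, 70.3, 169 and 129 CPM in 9_10 A to D and 616, 1167 and 1162 CPM in sEV A to C, and the log2 fold change of its share was -4.02 (SE 0.45, adjusted p = 2.19e-09). miR-320c had 23.7, 34.7, 82.6 and 104 CPM against 386, 739.7 and 722 CPM, and its log2 fold change was -4.12 (SE 0.46, adjusted p = 2.18e-09). For miR-320d the levels were 22.6, 9.79, 53.0 and 50.1 CPM and 274, 478 and 449 CPM, a within-class log2 fold change of -4.45 (SE 0.47, adjusted p = 7.50e-10). In all 3 entries every 9_10 library lay below every sEV library. miR-320a-3p, the most abundant member, had 556 to 1459 CPM in 9_10 and 3436 to 5458 CPM in sEV, with a within-class log2 fold change of -2.93 (SE 0.43, adjusted p = 3.15e-06). The miR-320 entries can share reads. The sequences of miR-320b, miR-320c and miR-320d differ by a few bases at the 3′ end, as shown above, while that of miR-320a-3p is not printed.

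miR-484, which is likewise made without Drosha, had 65.3, 80.1, 123 and 48.5 CPM in 9_10 and 294, 549 and 509 CPM in sEV, a within-class log2 fold change of -3.32 (SE 0.54, adjusted p = 3.45e-05). The widest such difference among abundant miRNAs outside the list was that of miR-423-5p, with 131, 71.2, 98.7 and 296 CPM against 1663, 2139 and 2057 CPM, a within-class log2 fold change of -4.40 (SE 0.49, adjusted p = 2.18e-09). With 1 library left out this value was -4.97 to -4.19. miR-10a-3p, the minor arm of the miR-10a hairpin, had 97.9, 142.37, 222.01 and 96.9 CPM against 442, 774 and 642 CPM, a within-class log2 fold change of -2.91 (SE 0.47, adjusted p = 2.76e-05). Its major arm miR-10a-5p showed 6808 to 17787 CPM in 9_10 and 3599 to 6789 CPM in sEV, a within-class log2 fold change of 0.67 (SE 0.39, adjusted p = 0.246).

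Further miRNAs of at least 100 CPM with a lower share were miR-629-5p, miR-378a-3p, miR-15b-5p, miR-361-5p and miR-335-5p, with within-class log2 fold changes from -3.03 for miR-629-5p to -1.91 for miR-335-5p and no overlap of their CPM ranges. miR-378a-3p lost its call without sEV B, sEV C, 9_10 A or 9_10 B, and miR-15b-5p without any 1 of the sEV libraries, 9_10 A or 9_10 B. All 5 lost it without 9_10 A and B together. miR-3168 was higher, at 398, 294, 12.3 and 10.8 CPM in 9_10 and 4.10, 0 and 0 CPM in sEV, a within-class log2 fold change of 6.65 (SE 1.51, adjusted p = 0.00568), but that call was lost without sEV B, without sEV C or without 9_10 A and B together, and the value ranged from 5.97 without 9_10 A to 12.42 without sEV A.

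The 2 arms of the miR-130b hairpin differed in direction. miR-130b-3p had 24.5, 62.3, 86.3 and 43.1 CPM in 9_10 and 299.6, 338 and 321 CPM in sEV, with a within-class log2 fold change of -3.38 (SE 0.45, adjusted p = 2.91e-07). miR-130b-5p had 157, 107, 209.7 and 215.36 CPM and 23.8, 1.93 and 4.85 CPM, a within-class log2 fold change of 3.73 (SE 0.83, adjusted p = 0.00436). Neither arm's ranges overlapped between the groups. The call of the 5p arm was lost without sEV B or without sEV C, and the value was 3.29 to 4.83 over the 7 fits with 1 library left out, highest without sEV A. The difference between the arms was not tested.

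**Figure D2:**
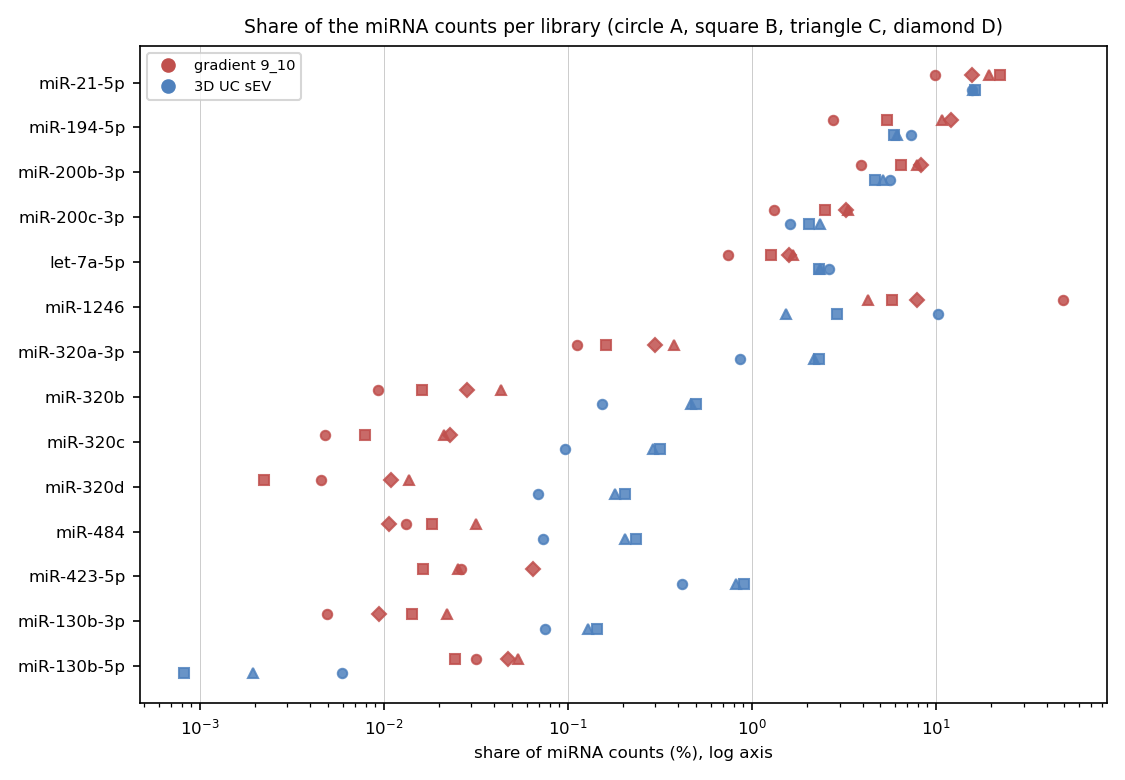
Share of each library's miRNA counts (percent, log axis) for 14 miRNAs in the gradient 9_10 libraries (red) and the 3D UC sEV libraries (blue). The miR-320 entries, miR-484, miR-423-5p and miR-130b-3p sit lower in all 4 gradient libraries, miR-130b-5p sits higher, and miR-1246 takes 49.1% of the miRNA counts of gradient library A.

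No abundant epithelial miRNA passed the test of its share of the miRNA counts. miR-21-5p, an oncogenic miRNA of many carcinomas, made up 9.86, 22.3, 19.3 and 15.8% of the miRNA counts of 9_10 A to D and 15.8, 16.4 and 16.0% of those of sEV A to C, with a log2 fold change of 0.07 (SE 0.37, adjusted p = 0.942). The intestinal miR-194-5p made up 2.76, 5.46, 10.8 and 12.1% and 7.35, 5.90 and 6.14%, a within-class log2 fold change of 0.27 (SE 0.45, adjusted p = 0.715). For the miR-200 family, guards of the epithelial state, 0 of 9 members passed within the class, and the family's median was -0.15. Its member miR-200c-3p showed 6525, 10962, 12938 and 14838 CPM in 9_10 and 6421, 4813 and 5841 CPM in sEV, a within-class log2 fold change of 0.38 (SE 0.39, adjusted p = 0.533). In the let-7 family, tumour-suppressive miRNAs, 0 of 17 passed (median -0.78), and let-7a-5p took 0.747, 1.27, 1.67 and 1.59% of miRNA counts in 9_10 and 2.64, 2.32 and 2.35% in sEV, a within-class log2 fold change of -0.88 (SE 0.41, adjusted p = 0.168). The miR-17-92 cluster and its paralogs gave 0 of 19 and a median of 0.38. At an unadjusted p under 0.05 in the same edgeR fit the counts were 0, 5 and 0. let-7a-5p and let-7g-5p passed with only the 7 libraries in the fit. Over the whole table edgeR with TMM called 4, 10 and 4 members of these families lower, DESeq2 called 8, 11 and 9 lower, and by library totals 0 passed. Of all miRNA entries TMM called 152 of 505 lower, beside 9.43% of all features, and DESeq2 called 218 of 447 in either direction. These family counts are therefore not read apart from the whole class. A p above the threshold does not show equal shares.

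Within the miRNA class 26 of all 485 tested entries were lower, beside 1.05% of all features tested within classes. In 4 further lists 1 or 2 members passed, all lower. In the list of miR-10, miR-99, miR-100 and miR-125 it was miR-10a-3p alone, 1 of 13. miR-24-3p, 1 of 11 in its list, had 1749.7, 1913, 3157 and 3004 CPM against 5636, 3894 and 4095 CPM (within-class log2 fold change -1.48, SE 0.43, adjusted p = 0.0470), and that call was lost in 6 of the 7 fits with 1 library left out. miR-221-3p, 1 of 4 in its list, had 1075, 2207, 2787 and 2633 CPM against 2383, 4385 and 5109.8 CPM (within-class log2 fold change -1.58, SE 0.40, adjusted p = 0.0174), with overlapping ranges and a call lost without sEV B, sEV C, 9_10 A or 9_10 B. In the list of miR-29 and miR-30, 2 of 15 passed, miR-29b-3p and miR-29c-3p, and both lost their call without sEV A and without 9_10 A. miR-29b-3p had 2361, 435 and 254 CPM in sEV A to C and 131, 478, 157 and 129 CPM in 9_10, so the ranges overlapped, and without sEV A its within-class log2 fold change went from -2.54 to -1.51.

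miR-1246 set gradient library A apart. This entry overlaps U2 snRNA sequence, and it stood at 242782, 25279.5, 16601 and 35766 CPM in 9_10 A to D and at 41024, 6811 and 3827 CPM in sEV A to C. The ranges overlapped, and the within-class log2 fold change was 1.77 (SE 1.01, adjusted p = 0.246). The 2 U2 copies RNU2-2P and RNU2-36P were also highest there. RNU2-2P had 29488, 1716, 389 and 249 CPM in 9_10 and 905, 600.2 and 462 CPM in sEV, and RNU2-36P had 29456, 1709, 385 and 237 CPM and 882, 481 and 368 CPM. The call of RNU2-2P within the snRNA class (within-class log2 fold change 3.87, SE 0.87, adjusted p = 0.00242) was lost without library A, where the log2 fold change was 1.78.

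tRNA entries changed places within their class. Of 49 tested entries 4 took a larger and 6 a smaller share of the tRNA counts in 9_10, beside 1.64% and 1.05% of all features tested within classes. By library totals 7 were higher and 0 lower in CPM, beside 4.84% and 1.48% of all features. tRNA-Gly-GCC, known for its extracellular 5′ fragments, was the most abundant, with 49974, 83389.5, 74079.7 and 53876 CPM in 9_10 and 21571, 18934 and 18039 CPM in sEV. All gradient libraries lay above all sEV libraries in CPM, yet its share of the tRNA counts did not pass (within-class log2 fold change 0.27, SE 0.59, adjusted p = 0.790), nor did the log2 fold change by library totals of 1.74 (adjusted p = 0.0548).

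tRNA-Arg-TCT and tRNA-Ser-TGA were higher in 9_10 and highest in its libraries B and C. Both fell in the order C, B, D and A, from the shallowest library to the deepest, and the part of depth was not tested. tRNA-Arg-TCT had 854, 6169, 11750.3 and 1423 CPM in 9_10 A to D and 21.3, 216 and 445 CPM in sEV A to C, and its within-class log2 fold change was 3.53 (SE 0.78, adjusted p = 0.00448), 2.92 to 4.08 with 1 library left out and lowest without 9_10 C. tRNA-Ser-TGA had 1090.2, 6638, 13302 and 1104 CPM and 24.3, 330.3 and 690.2 CPM, a within-class log2 fold change of 3.05 (SE 0.75, adjusted p = 0.0140), a call lost without sEV A, sEV B or 9_10 C, where the value was 2.37. tRNA-Ile-GAT was nearly absent from sEV, with 10.4, 6.70 and 8.24 CPM, and had 9419, 357, 507 and 149 CPM in 9_10. Library A carried most of it, and the within-class log2 fold change of 6.89 (SE 1.46, adjusted p = 0.00304) became 3.65 and no longer passed without that library, and the call was also lost without sEV B.

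The 6 tRNA entries with a smaller share in 9_10 were tRNA-iMet-CAT, tRNA-Met-CAT, tRNA-Trp-CCA, tRNA-Gln-TTG, tRNA-Ile-TAT and tRNA-Leu-TAA. tRNA-iMet-CAT, the initiator, had 240.4, 468, 370.0 and 334 CPM in 9_10 and 135.48, 3077 and 5558 CPM in sEV, a within-class log2 fold change of -3.68 (SE 0.86, adjusted p = 0.00816). tRNA-Met-CAT, the elongator, had 267, 285, 463 and 220.75 CPM and 88.5, 2972 and 5240.1 CPM, a within-class log2 fold change of -3.84 (SE 0.81, adjusted p = 0.00272). In each of the 6 entries sEV A lay below all 4 gradient libraries in CPM while sEV B and C lay above them, so the CPM ranges overlapped. The calls are of shares of the tRNA counts, which were 4.27% of sEV A and 13.7 to 27.9% of the gradient libraries. Overlap in CPM is therefore not overlap in the share tested. tRNA-Met-CAT passed in every fit with 1 library left out but not without 9_10 A and B together, and the other 5 lost their call in 1 or more fits.

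**Figure D3:**
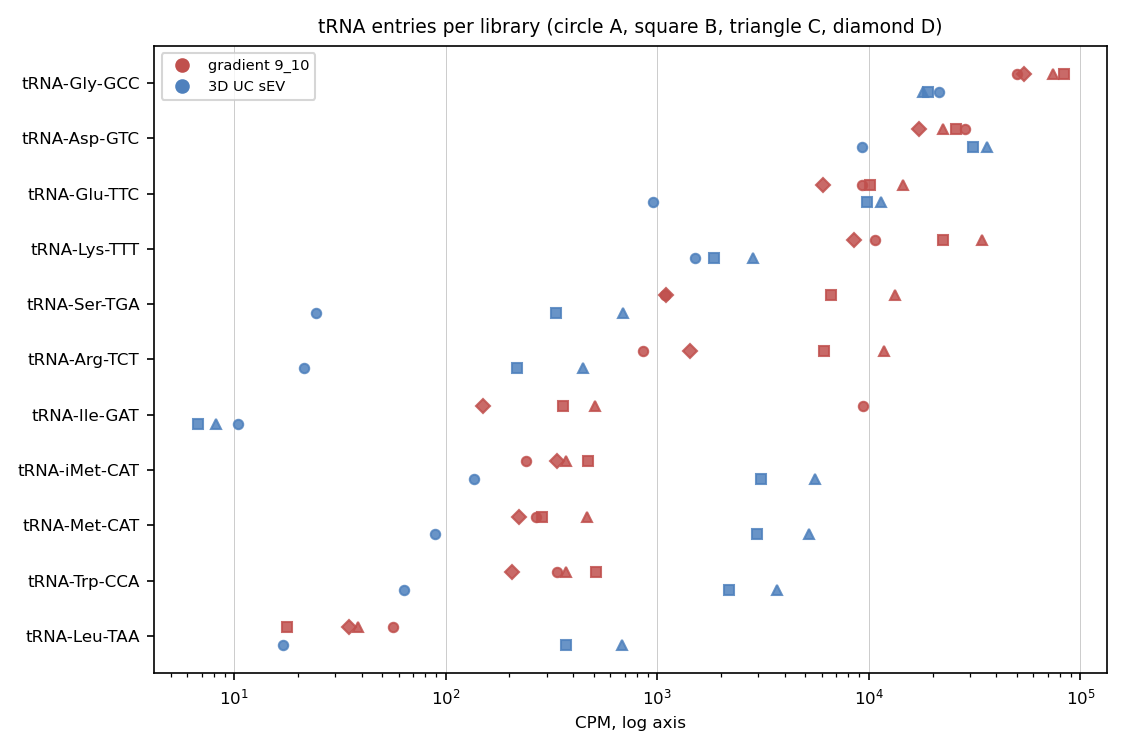
CPM (log axis) of 11 tRNA entries in the gradient 9_10 libraries (red) and the 3D UC sEV libraries (blue). tRNA-Gly-GCC, tRNA-Lys-TTT, tRNA-Ser-TGA, tRNA-Arg-TCT and tRNA-Ile-GAT lie higher in all 4 gradient libraries, while for the lowest 4 entries sEV A (blue circle) lies below the gradient libraries and sEV B and C lie above them.

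Of the Y RNAs, the parent RNY1 had 4561, 28350.3, 33152 and 35964 CPM in 9_10 and 81337, 96572 and 95221 CPM in sEV, lower in all 4 gradient libraries (log2 fold change -4.40, SE 0.72, adjusted p = 1.75e-07, with TMM and -1.83, adjusted p = 0.0361, by library totals). Its share of the Y RNA counts was 15.6, 26.0, 20.4 and 24.4% against 60.7, 41.0 and 39.1%, ranges that do not overlap, but the within-class test did not pass (within-class log2 fold change -1.12, SE 0.72, adjusted p = 0.292), except with only the 7 libraries in the fit. RNY4 had 4473, 16173, 25996 and 22858 CPM and 10393, 29890.3 and 31832 CPM, a within-class log2 fold change of 0.46 (SE 0.64, adjusted p = 0.655), and RNY3 had 123, 174, 244 and 306 CPM and 220.72, 159 and 169 CPM, a within-class log2 fold change of 1.23 (SE 0.57, adjusted p = 0.176). Of 336 Y RNA copies tested 11 took a larger share and 0 a smaller one, beside 1.64% and 1.05% of all features tested within classes. The copy ENSG00000199584 had 1839, 2137, 7490.2 and 706 CPM against 23.2, 45.6 and 63.0 CPM, a within-class log2 fold change of 7.32 (SE 1.05, adjusted p = 3.15e-06), and passed in every within-class fit with 1 library left out. Its TMM call over the whole table (log2 fold change 3.36, adjusted p = 0.0070) was lost without sEV A, sEV B or 9_10 C, where the value was 2.08.

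Vault RNA levels differed more among the gradient libraries than between the groups. VTRNA1-1 had 302, 1882, 16987 and 117999 CPM in 9_10 A to D and 25734, 52131 and 60609 CPM in sEV A to C. Library A lay below and library D above every sEV library, and the within-class log2 fold change was -0.81 (SE 0.57, adjusted p = 0.334). VTRNA1-2 and VTRNA1-3 followed the same order in C and D, at 74.0, 267, 5029.7 and 25708 CPM and 29.2, 22.2, 454 and 1739 CPM in 9_10. VTRNA1-1 took 74.7, 76.8 and 76.5% of the misc_RNA counts in sEV and 13.5, 29.6, 50.1 and 78.5% in 9_10, and shares of the other misc_RNA entries are read against this varying total.

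Some copies of 7SL and 7SK RNA were higher in 9_10, while the parent genes RN7SL1 and RN7SK were not. RN7SL1 had 58.5, 72.1, 28.4 and 33.4 CPM in 9_10 and 47.8, 210.4 and 218 CPM in sEV, overlapping through sEV A (log2 fold change -1.74, adjusted p = 0.135, by library totals). RN7SL145P had 55.1, 427, 1295 and 37.7 CPM, from 27, 48, 105 and 7 counts, against 2 counts (rounded) in the 3 sEV libraries together. Over group sums this was a ratio of 1150.2 with a 95% counting interval of 314 to 9568, and 556 without 9_10 C. RN7SL734P had 528, 498, 1122 and 167 CPM against 0, 0.482 and 0.346 CPM. RN7SL145P passed in every fit with 1 library left out, with TMM values of 7.17 to 12.37, lowest without 9_10 C and highest without sEV C. In the 7SL list 5 of 65 tested entries were higher and 0 lower under both scalings, beside 0.271% and 1.48% of all features.

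The parent RN7SK, which the table holds as a snRNA, was lower, with 12.2, 26.7, 24.7 and 10.8 CPM in 9_10 and 78.9, 639.6 and 488 CPM in sEV (log2 fold change -7.40, SE 1.02, adjusted p = 1.78e-10, with TMM, -4.54, adjusted p = 0.000326, by library totals). Its copy RN7SKP232 was higher, with 97.9, 1183, 3762 and 285 CPM against 1.91, 6.27 and 8.65 CPM (log2 fold change 5.17, SE 1.13, adjusted p = 0.000172, with TMM, 7.88, adjusted p = 0.00117, by library totals). Without 9_10 C the TMM value of RN7SKP232 was 3.38 and still passed. RN7SKP229 had 0 counts in sEV and 16.3, 133.47, 234 and 10.8 CPM in 9_10, at least 180.4-fold higher over group sums against 3 counts in the sEV group, and at least 113-fold without 9_10 C. The 7SK list holds copies in the misc_RNA class and not RN7SK itself. In it 2 of 22 tested entries were higher and 1 lower under both scalings, beside 0.271% and 1.48% of all features. The lower entry is thus a copy too, so not all copies that passed were higher.

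Several parent genes of spliceosomal and U7 snRNAs were lower in 9_10. RNU1-1, a U1 gene, had 149, 285, 298 and 235 CPM in 9_10 and 2541, 2848 and 2194 CPM in sEV, and was lower (log2 fold change -6.13, SE 0.90, adjusted p = 2.59e-09, with TMM, -3.39, adjusted p = 0.000978, by library totals). RNU2-1, a U2 gene, had 2489, 4912, 6480.1 and 3950.3 CPM and 15759.7, 20725 and 18013 CPM (log2 fold change -4.74, SE 0.78, adjusted p = 1.64e-07, with TMM, -2.03, adjusted p = 0.0372, by library totals). RNU6-1, a U6 gene, stood at 4.69, 2.67, 2.47 and 5.38 CPM, which is 3.80 counts in all 4 libraries, against 113, 106.48 and 78.5 CPM (log2 fold change -7.85, SE 1.29, adjusted p = 1.66e-07, with TMM, -4.97, adjusted p = 0.0102, by library totals). RNU7-1, the U7 RNA of histone mRNA 3′ end processing, had 4.28, 8.90, 12.3 and 21.5 CPM, from 2, 1, 1 and 4 counts, against 461, 1035 and 764 CPM (log2 fold change -8.72, SE 1.08, adjusted p = 6.69e-13, with TMM, -6.09, adjusted p = 1.79e-07, by library totals). In each of the 4 every gradient library lay below every sEV library. As a share of the snRNA counts RNU7-1 alone passed (within-class log2 fold change -4.74, adjusted p = 0.000832), a call lost without 9_10 A and B together. The within-class values were -1.95 (adjusted p = 0.109) for RNU1-1, -0.67 (adjusted p = 0.522) for RNU2-1 and -4.14 (adjusted p = 0.05003) for RNU6-1. That of RNU6-1 passed with only the 7 libraries in the fit.

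Under both scalings 50 of 274 tested snRNA entries were lower and 5 higher, beside 1.48% and 0.271% of all features. Of the 5 higher entries, 4 copies had a mean of at least 100 CPM in 9_10. RNU7-144P had 0 counts in every sEV library and 97, 134, 299 and 41 counts, or 197, 1192, 3684 and 222.36 CPM, in 9_10 A to D, at least 2341-fold higher over group sums against 3 counts in the sEV group, and at least 1230.0-fold without 9_10 C. RNU7-92P followed it library by library at 98.5, 596, 1841 and 111 CPM, also with 0 counts in sEV. Its level was in nearly the same proportion to that of RNU7-144P in all 4 gradient libraries. Whether RNU7-92P and RNU7-144P hold the same divided reads was not tested, so RNU7-92P is not read as separate evidence. RNU6-1277P had 67.3, 961, 5883 and 463 CPM against 1 count in sEV, a ratio over group sums of 8660.3 with a counting interval of 1549 to 342543, and 3079.6 without 9_10 C. RNU1-75P had 267, 3123, 7203 and 540.0 CPM against 0.983, 0.724 and 0.242 CPM (log2 fold change 9.01, SE 1.32, adjusted p = 2.59e-09, with TMM, 11.84, adjusted p = 1.05e-10, by library totals). In all 4 copies the order of the levels, C, B, D and A, ran from the shallowest library to the deepest, and the part of depth in the result was not tested. The TMM calls of RNU7-144P, RNU6-1277P and RNU1-75P remained when any 1 of the 7 libraries was left out, and without C their log2 fold changes were 12.23, 9.24 and 7.44. Without sEV A that of RNU6-1277P was 14.54.

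**Figure D4:**
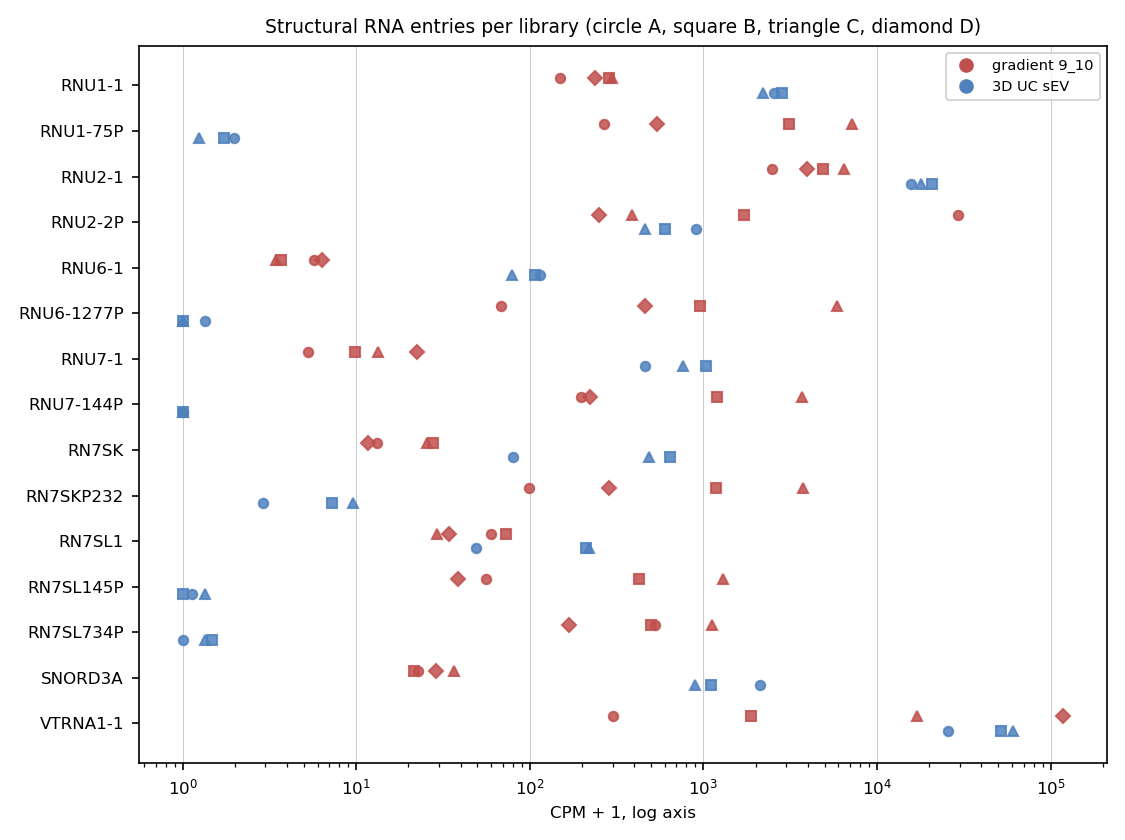
CPM + 1 (log axis, so 0 CPM lies at 1) of 15 structural RNA entries in the gradient 9_10 libraries (red) and the 3D UC sEV libraries (blue). RNU1-1, RNU2-1, RNU6-1, RNU7-1, RN7SK and SNORD3A are lower in all 4 gradient libraries, the copies RNU1-75P, RNU6-1277P, RNU7-144P, RN7SKP232, RN7SL145P and RN7SL734P are higher in all 4, and VTRNA1-1 spans the sEV points.

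By list and under both scalings, 19 of 63 U1 entries were lower and 2 higher, and 16 of 96 U6 entries lower and 1 higher. Of 45 U2 entries 4 were lower and 0 higher. Over all features 1.48% were lower and 0.271% higher in this way. Of 29 U4 and 11 U5 entries none passed in 1 direction under both scalings (0 and 1 at an unadjusted p under 0.05 under both scalings). edgeR with TMM called 7 and 7 lower, and DESeq2 9 and 8 lower, while by library totals 5 and 0 were higher. Within the snRNA class 5 of 30 U4 and 2 of 16 U5 entries took a larger share, beside 1.64% of all features tested within classes. RNU4-1, a U4 gene, was among them, with 39.6, 594, 1019 and 80.2 CPM in 9_10 and 76.3, 86.6 and 78.5 CPM in sEV, a within-class log2 fold change of 3.46 (SE 0.96, adjusted p = 0.0269), a call lost without sEV A, sEV B, sEV C, 9_10 B or 9_10 C. RNU4-2, another U4 gene, had 43.6, 609.5, 1036 and 92.1 CPM in 9_10 and 83.7, 288 and 202 CPM in sEV, a within-class log2 fold change of 2.13 (SE 0.89, adjusted p = 0.130). The U12 RNA of the minor spliceosome, RNU12, had 2584, 1851, 2306 and 1615 CPM against 83564, 8817 and 3722 CPM, where sEV A was the highest by far (log2 fold change -6.86, SE 1.33, adjusted p = 0.000274, with TMM, -3.94, adjusted p = 0.0618, by library totals). RNU11 of the same spliceosome had 33.2, 44.5, 49.3 and 237 CPM against 892, 7032 and 6022 CPM (log2 fold change -7.92, SE 1.81, adjusted p = 0.00342, with TMM, -5.66, adjusted p = 0.0172, by library totals), a TMM call lost without 9_10 A and B together.

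Part of the snoRNAs were lower in 9_10, and the class share did not pass (exact permutation p = 0.0286, adjusted 0.143). Under both scalings 31 of 265 tested entries were lower and 1 higher, beside 1.48% and 0.271% of all features. The median by library totals was -2.42 against 2.92 over all 7009 features. SNORD3A, the U3 RNA of pre-rRNA cleavage, had 21.6, 20.5, 35.8 and 27.997 CPM in 9_10 A to D, from 11, 2, 3 and 5 counts, and 2115, 1112 and 892 CPM in sEV A to C (log2 fold change -8.54, SE 1.05, adjusted p = 6.22e-13, with TMM, -5.75, adjusted p = 1.79e-07, by library totals). The mean level was 51.9-fold higher in sEV. SNORD26, a C/D box guide of rRNA methylation, had 24.5, 26.7, 49.3 and 0 CPM against 417, 1590.1 and 1024 CPM (log2 fold change -8.40, SE 1.09, adjusted p = 7.14e-12, with TMM, -5.43, adjusted p = 3.25e-05, by library totals). SNORD89 and SNORD62A gave 0 to 24.7 and 0 to 35.6 CPM in 9_10 against 475 to 757 and 253 to 576 CPM in sEV. With 1 library left out the TMM values were -8.76 to -7.69 for SNORD3A, -9.05 to -7.44 for SNORD26, -8.92 to -7.77 for SNORD89 and -8.21 to -7.40 for SNORD62A, nearest to 0 without 9_10 B, D, A and A. Of 150 C/D box entries 23 were lower under both scalings, and of 88 H/ACA box entries, guides of pseudouridylation, 5 were, with 0 higher in either list. SNORA21, an H/ACA RNA, had 2.04, 62.3, 49.3 and 264 CPM against 1328, 803 and 564 CPM (log2 fold change -5.57, SE 0.95, adjusted p = 4.93e-07, with TMM, -3.25, adjusted p = 0.0231, by library totals), and its TMM value was -7.40 to -4.92 with 1 library left out, farthest from 0 without 9_10 D. SNORD33 had 122, 601, 1357 and 565 CPM and 1485, 555 and 588 CPM, overlapping, and was lower with TMM alone (log2 fold change -3.12, SE 0.78, adjusted p = 0.00162, with TMM, -0.41, adjusted p = 0.677, by library totals).

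Most of the difference in rRNA share lay in 28S rRNA, the large subunit RNA, at 99712, 34898, 31734 and 45549 CPM in 9_10 and 207836, 162924 and 124026 CPM in sEV (log2 fold change -4.46, SE 0.70, adjusted p = 3.96e-08, with TMM, -1.64, adjusted p = 0.0567, by library totals), a TMM call lost without 9_10 B. 18S rRNA of the small subunit went the other way in CPM, at 11554, 9975, 7191 and 9196 CPM against 4223, 6649 and 7144 CPM, again without overlap, but its direction turned with the scaling (log2 fold change -2.09, SE 0.71, adjusted p = 0.0364, with TMM, 0.66, adjusted p = 0.431, by library totals), and the TMM call was lost without any 1 of the 7 libraries. The 5S and 5.8S entries summed to 8329, 8925, 9054 and 6682 CPM in 9_10 and 5485, 31980.1 and 21384 CPM in sEV, with sEV A lowest. Mitochondrial 16S rRNA was lower, at 10.2, 89.0, 0 and 16.2 CPM against 567, 2103 and 1213 CPM (log2 fold change -8.68, SE 1.07, adjusted p = 6.69e-13, with TMM, -5.55, adjusted p = 2.21e-06, by library totals). Of 21 mitochondrial tRNAs tested 3 were lower under both scalings, beside 1.48% of all features. Among the mitochondrial tRNAs mt-TV had 32.6, 17.8, 0 and 10.8 CPM against 25.7, 659 and 506 CPM (log2 fold change -7.40, SE 1.11, adjusted p = 7.75e-09, with TMM, -4.52, adjusted p = 0.00734, by library totals). Its sEV A value overlapped the gradient libraries, and the TMM value was -8.01 to -6.67 with 1 library left out, nearest to 0 without 9_10 B. mt-TE had 26.5, 347, 296 and 232 CPM and 30.3, 132.65 and 139 CPM, with 1.15 (adjusted p = 0.290) by library totals.

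Among lncRNA features ENSG00000259001 was lower under both scalings, with 26.5, 26.7, 37.0 and 16.2 CPM in 9_10 and 1492, 2108 and 1709.6 CPM in sEV (log2 fold change -8.96, SE 1.05, adjusted p = 3.11e-14, with TMM, -6.09, adjusted p = 2.67e-08, by library totals). ENSG00000286171 alone took 51.7, 82.6 and 84.5% of the lncRNA counts of sEV A to C and 5.40, 7.84, 16.7 and 26.8% of those of 9_10 A to D, at 5538, 39261 and 38016 and 3159, 6379.9, 3823 and 5966 CPM. Without 9_10 B the TMM value of ENSG00000259001 was -8.21. SNHG1 and GAS5, host genes of snoRNAs, had 36.7, 35.6, 12.3 and 43.1 and 44.9, 26.7, 24.7 and 172 CPM in 9_10 against 260.3, 418 and 287 and 399, 365 and 299 CPM in sEV. Within the class 26 of 3430 lncRNA features were higher and 4 lower, beside 1.64% and 1.05% of all features tested within classes. The median within-class log2 fold change of the 3430 was 2.71. Shares of the other lncRNA features are read against a total of which ENSG00000286171 took the larger part in sEV. None of the 26 passed in every fit with 1 library left out. EPCAM-DT, divergent to the epithelial adhesion gene EPCAM, had 852, 819, 728 and 813 CPM against 90.4, 204 and 230.5 CPM without overlap, and its share did not pass (within-class log2 fold change 1.97, SE 0.77, adjusted p = 0.112).

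Many retroviral entries were more abundant in CPM, and in the fit of all libraries no entry's share of the class passed the test. THE1B, the most abundant, had 732, 1158, 309.6 and 147 CPM in 9_10 and 43.3, 43.2 and 36.8 CPM in sEV (log2 fold change 3.83, adjusted p = 0.00937, by library totals, 0.63, SE 0.87, adjusted p = 0.790, with TMM). By library totals 88 of 743 entries were higher and 0 lower, beside 4.84% higher over all features, with a median log2 fold change of 3.46 against 2.92 over all features, with TMM 0 passed in either direction (edgeR; 22 had an unadjusted p under 0.05, and DESeq2 called 1), and within the class 0 of 394 passed (7 unadjusted), where the median was -0.01. With only the 7 libraries in the fit the shares of HERVL_MLT2A1, LTR12C and LTR33 passed. MSTA had 695, 990.4, 216 and 259.5 CPM and 26.0, 56.6 and 47.7 CPM, LTR12C 566, 719, 160.3 and 165 CPM and 18.2, 27.8 and 24.1 CPM. Libraries A and B were above C and D in each of the 3.

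The 9_10 libraries also spread their counts over more features at equal depth. In a draw of 80948 counts, the rounded total of library C, the expected number of features with at least 1 count was 3299, 3816, 2125 and 1748 for 9_10 A to D and 1102, 1319.9 and 1261 for sEV A to C. lncRNA entries made up 2166, 2572, 932 and 775 of these in 9_10 and 213, 359.6 and 321 in sEV. For miRNA the ranges overlapped, with 242, 277, 293 and 262 against 269.8, 256 and 267, and for snoRNA 9_10 was lower, with 56.4, 82.1, 108 and 99.8 against 146, 167 and 156. No test was made of these expectations.

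**Figure D5:**
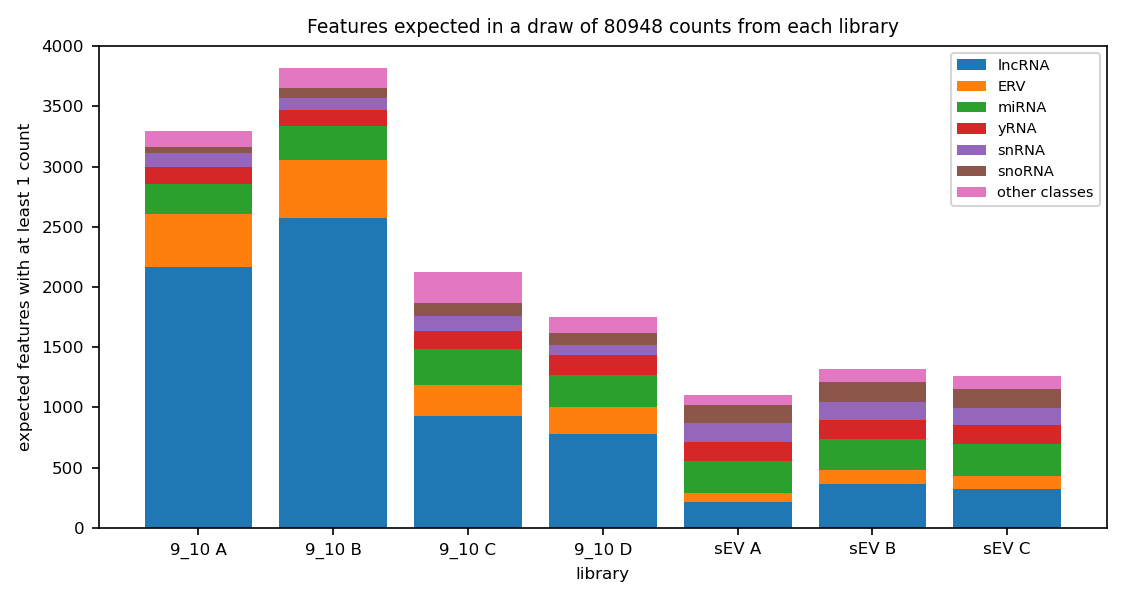
Expected number of features with at least 1 count in a draw of 80948 counts from each library, stacked by RNA class, for gradient 9_10 A to D and 3D UC sEV A to C. The 9_10 bars reach 1748 to 3816 features and the sEV bars 1102 to 1319.9, and the lncRNA part makes most of the difference.

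The other pools of the gradient give the levels of the named features a further setting. Each feature was compared between 9_10 and pools 6_7 and 12 in the same edgeR fits, in contrasts that leave the sEV levels out. Many of the features were named for being high or low in these same 9_10 libraries, so the calls are not independent of that choice and are given as a description. A feature is counted as higher or lower where it passed in that direction with TMM and by library totals and its CPM ranges did not overlap. Of 148 tested features named by the rule, 22 were higher and 3 lower than in 6_7, beside 3.38% and 0.157% of all 7009 features. Against 12, 49 were higher and 9 lower, beside 2.58% and 0.671% of all features. RNU7-144P was higher in 9_10 than in both, at 2.11 to 16.3 CPM in 6_7 and 2.64 to 15.0 CPM in 12 (log2 fold change over 6_7 5.17 with TMM, adjusted p = 9.34e-05, and 7.79 by library totals, adjusted p = 2.92e-08, and over 12 3.79 with TMM, adjusted p = 0.00184, and 7.08 by library totals, adjusted p = 1.64e-08). RNU6-1277P, RN7SL145P, RN7SKP232 and RN7SKP229 were likewise higher than in both. RNU1-75P was higher than in 6_7, and against 12, where it reached 20.3 to 94.8 CPM, it passed by library totals but not with TMM (log2 fold change 2.30 with TMM, adjusted p = 0.0796, and 5.63 by library totals, adjusted p = 6.64e-07).

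Beside RNU1-75P and the 5 copies above, the 22 features higher than in 6_7 were RNY4P20, SNORA62, RNU5E-1 and 13 retroviral entries. THE1B had 3.19 to 6.82 CPM there (log2 fold change 3.40 with TMM, adjusted p = 0.00477, and 6.74 by library totals, adjusted p = 3.67e-08). The 3 features lower than in 6_7 were EPCAM-DT, RN7SL1 and RN7SL2, and EPCAM-DT had 1233 to 3599.9 CPM in 6_7 (log2 fold change -4.25 with TMM, adjusted p = 9.34e-05, and -1.58 by library totals, adjusted p = 0.0486). let-7a-5p had 7417 to 20661 CPM in 6_7 and 3692 to 7229 CPM in 9_10, and passed with TMM only (log2 fold change -3.95 with TMM, adjusted p = 8.04e-05, and -1.39 by library totals, adjusted p = 0.0504).

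The abundant miR-21-5p and tRNA-Gly-GCC were higher than in pool 12. miR-21-5p had 37121 to 83228 CPM in 6_7 and 271 to 1159.8 CPM in 12 (log2 fold change over 12 3.35 with TMM, adjusted p = 9.13e-05, and 6.70 by library totals, adjusted p = 1.27e-15). tRNA-Gly-GCC had 38053 to 123768 CPM in 6_7 and 73.4 to 855 CPM in 12 (log2 fold change over 12 4.16 with TMM, adjusted p = 1.70e-06, and 7.53 by library totals, adjusted p = 3.15e-17). The CPM ranges of both overlapped those of 6_7. 28S rRNA was lower than in 12, where it had 355972 to 638747 CPM (log2 fold change -6.44 with TMM, adjusted p = 7.06e-14, and -3.15 by library totals, adjusted p = 1.41e-05). miR-1246 had 265260.0 to 481112 CPM in 12 and passed with TMM only (log2 fold change -5.67 with TMM, adjusted p = 0.00678, and -2.17 by library totals, adjusted p = 0.109). tRNA-Ile-GAT, low in sEV, had 1516 to 3069 CPM in 6_7 and 1.74 to 10.9 CPM in 12. The 6_7 range lay within that of 9_10, whose library A was above and whose B, C and D were below it. RNU7-1 was at 1.59 to 2.33 CPM in 6_7 and 0.0821 to 3.53 CPM in 12 and at 4.28 to 21.5 CPM in 9_10, and SNORD3A had 10.7 to 18.1 and 16.6 to 40.0 CPM there. The miR-320b range was 56.4 to 135.34 CPM in 6_7 and 77.9 to 242 CPM in 12, overlapping 9_10 in both.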

How the data were processed

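Small RNA libraries were counted by the authors, who deposited 1 table of estimated counts per feature and library. Per the submitters' processing notes, reads were handled with cutadapt 4.5, FastQC 0.12.1 and Bowtie 1.3.1 on GRCh38.p13, and the counting tool and annotation are not given in the sources used here. Of all deposited values 6.71% were not whole (tolerance 1e-06). They were rounded, then tested with edgeR 4.0.16 (R 4.3.3, limma 3.58.1): TMM, filterByExpr with a minimum count of 10, 11 group means over 38 libraries, quasi-likelihood test, Benjamini-Hochberg adjustment, threshold 0.05, 2-sided. Of the 7009 features tested, 358 have no count in the 7 libraries. Within-class fits set the library size to the class total and tested 5249 features. Class shares were compared by exact permutation tests, 2-sided, with 95% Wilson intervals for counting error. DESeq2 1.42.0 was an alternative, with other scalings, filters, blocks and left-out libraries. The fits were tested on simulated data. Repeated libraries of a group differed beyond sampling noise, so each counts once.

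Named features were those that passed with ranges apart and reached 100 CPM as the higher group's mean (the 10 largest differences in each direction, 1 per family), the 3 most abundant of each class, and the leading members of the lists. Chosen after their values were seen were miR-423-5p, miR-29b-3p, miR-29c-3p, miR-320d, miR-130b-3p, miR-130b-5p, miR-15b-5p, miR-335-5p, miR-361-5p, miR-378a-3p, miR-629-5p, GAS5, SNHG1, RNU7-1, RNU7-92P, RN7SK and the tRNA entries for Ser-TGA, Arg-TCT, iMet-CAT, Met-CAT, Trp-CCA, Gln-TTG, Ile-TAT and Leu-TAA. The members and lists were chosen with earlier results of these data known. That a contrast with another gradient pool had to pass by library totals as well as with TMM was chosen after seeing the data. The values of 1 tRNA entry are not reported here.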

Additional observations from a re-analysis of the deposited data

Results flagged for a closer look

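In 10 of 98 values tested, class shares and features, 1 of the 4 gradient 9_10 libraries lay apart from the other 3: its gap to the nearest library, as a share of the whole range, passed Dixon's 95% critical value for 4 samples. Chance alone passes this limit in about 1 of 20 groups where values are normally distributed. The CPM values here are skewed and some features move together, so that rate is no measure of an excess here. Library A was the high one for tRNA-Ile-GAT (0.961), RNU2-2P (0.949853), RNU2-36P (0.949624) and miR-1246 (0.915), at 9419, 29488, 29456 and 242782 CPM. Library D was the high one for RNU11 (0.920972), SNORA75 ENSG00000206885 (0.920513), GAS5 (0.863) and VTRNA1-1 (0.858), at 237, 415, 172 and 117999 CPM. Library B was the high one for miR-29b-3p (0.921345) at 478 CPM, and library C for RNU6-1277P (0.846) at 5883 CPM. Features with under 10 counts in the 4 libraries were not tested in this way.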

How the results depend on the processing

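Counts of features past the threshold moved with scaling, filter and the libraries fitted. Of the values named in the report, 18S rRNA turned from -2.09 with TMM to 0.66 by library totals, 0.89 with RLE factors and 2.15 within its class, RN7SL1 from -4.64 to 1.95 within its class, and tRNA-Gly-GCC from -1.07, which did not pass, to 1.87 with RLE factors and 0.91 with the 7 libraries alone, which did. The cause was not tested. Against 19 higher and 661 lower with TMM, library totals gave 339 and 104, RLE factors without the near-empty library 943 and 140, a mean count of at least 10 gave 130 and 290, the 7 libraries alone 307 and 205, class totals 86 and 55, no filter 15 and 492, leaving out the near-empty library 17 and 557, and DESeq2 13 and 833. With 1 of the 7 libraries left out the counts were 11 to 22 higher and 258 to 522 lower, lowest without sEV A or B and without 9_10 B. Within classes, against 86 and 55, the 7 libraries alone gave 283 and 104, and leaving out 1 library 30 to 81 higher (lowest without sEV B) and 19 to 42 lower (lowest without 9_10 A). Without 9_10 A and B, an alternative chosen after seeing the data, the counts were 14 and 137 over the table and 29 and 11 within classes. Classes without overlap numbered 3 with log2 shares and with shares other than rRNA, 3 to 6 with 1 library left out (6 without sEV A, 5 without 9_10 D) and 4 without 9_10 A and B. TMM over the miRNA entries alone, also chosen after seeing the data, called 7 miRNA entries higher and 34 lower. Upper quartile factors were not run, since 37 libraries have no usable factor.

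With the letter as a replicate block the counts were 15 higher and 672 lower over the table, and 52 and 34 within classes. Deviations of same-lettered libraries correlated at -0.07 for A, 0.08 for B and 0.11 for C, so the letters are not treated as pairs. The block ended the within-class calls of 10 named features, among them miR-24-3p. Depth limits 9_10: features under 6.12 to 37.0 CPM, depending on the library, rest on fewer than 3 counts.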
